A study of Mus musculus with 8 samples.

Results

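The 7 genes Gabra5, Gabrg3, Nipa1, Otud7a, Chrna7, Trpm1 and Fam189a1 lie on mouse chromosome 7 around the imprinted Snhg14 domain and are held to be expressed from both parental copies. All probe sets annotated to 1 of these symbols alone were taken, without regard to their values, which gave 12 of the 22511 probe sets on the array. Of these, 10 were among the 13221 tested probe sets, those brighter than the median of their array on at least 2 of the 8 arrays. The untested ones were the dimmest of 3 for Gabrg3 and the dimmer of a pair for Trpm1, and 1 further probe set that is listed for Gabrg3 together with another gene was set aside. Where a gene has several probe sets they are called A, B and C from the brightest to the dimmest.

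Brain RNA was measured on Affymetrix 430B arrays in mice with 1 copy of T9H, in which chromosomes 7 and 15 have exchanged segments (T9H/+). Paternal-7 mice carried a duplication of proximal chromosome 7 of paternal origin together with a maternal one of proximal chromosome 15, and maternal-7 mice the reverse. Each was profiled in 4 contexts, which were whole embryonic brain 13.5 and 15.5 days after conception (days post coitum, dpc), neonatal cortex and neonatal cerebellum, with 1 array for each duplication and context. The design text states that there were no biological replicates, and every p-value below rests on the spread among single arrays across contexts, which may be technical. All 8 samples carry the translocation, and none is a normal brain with 1 copy of these segments from each parent. The duplications of chromosomes 7 and 15 always go together, so their parts cannot be told apart. The sample titles name the duplications and do not state whether the other parent's copy of a segment was absent. The labels give neither the breakpoints nor whether RNA of several animals was pooled.

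Imprinted genes are read from the copy of 1 parent only, and the Snhg14 domain, which also holds Ndn, Magel2, Snrpn and Ube3a, is the mouse counterpart of the Prader-Willi and Angelman region of human chromosome 15. The genes on either side of it are generally read from both copies, so that the parental origin of a duplication is not by itself a reason for their level to differ. In the RefSeq gene order Nipa1, Gabrg3 and Gabra5 lie in that sequence before Snhg14, on its centromere side, and Chrna7, Otud7a, Trpm1 and Fam189a1 follow it past Peg12. Whether the genes on the far side fall inside the duplicated segment is not established by the labels.

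The deposited values are MAS5 signals, in which mismatch probes serve to correct the matching ones and each probe set gets 1 linear intensity. Array medians ran from 229.8 to 285.7 signal units, and this level is used below as the mark of a dim value. Signals of different probe sets depend on their probes and are not compared with each other as levels. Differences are on the log2(signal + 58.5) scale, with the moderated standard error from limma after the ± sign, and adjusted p-values are Benjamini-Hochberg values over all tested probe sets. As a check of the labels, Snhg14, a long RNA read from the paternal copy, had on its brightest probe set 667, 1197, 2372 and 1844 units in paternal-7 at 13.5 dpc, 15.5 dpc, cortex and cerebellum, against 33.9, 3.67, 0.262 and 0.641 in maternal-7. Ipw, Atp10a and Ube3a, the other tested imprinted genes of the domain, were not higher in the same duplication in all 4 contexts. The dissections were checked by marker genes. Of 4 tested markers of cortical projection neurons, 3 (Neurod2, Bcl11b and Slc17a7) were called higher in cortex than in cerebellum, and of 3 tested cerebellum markers 1 was called lower there, Tfap2b, a transcription factor of the cerebellar inhibitory lineage (-4.10 ± 0.32). The other two, Lhx9 (-1.16 ± 0.36) and Zic1 (0.05 ± 0.23), were not called.

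The promoters of 4 of the genes whose signal differed between neonatal and embryonic brain are shown first, to set their base composition and letter matches beside the values that follow. They are RefSeq windows on build GRCm38.p6, from 250 bases before to 50 bases after an annotated start. Capitals mark the letters searched on both strands, so that reverse complements are also in capitals. The searched letters were the E-box CACGTG, its variant with the letters CATGTG, the GC box with the letters GGGCGG, the TATA box with the letters TATAAA, and the CCAAT box. All 7 genes matched the RefSeq table, with 8 windows.
Gabra5, chr7:57510010-57510309, minus strand: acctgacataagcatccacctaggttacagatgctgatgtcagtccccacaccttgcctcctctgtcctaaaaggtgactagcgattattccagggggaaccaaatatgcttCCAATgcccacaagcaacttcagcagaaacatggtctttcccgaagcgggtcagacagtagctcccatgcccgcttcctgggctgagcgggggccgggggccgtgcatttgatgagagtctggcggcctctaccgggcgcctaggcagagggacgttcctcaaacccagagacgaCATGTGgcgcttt
Nipa1, chr7:56019551-56019850, minus strand: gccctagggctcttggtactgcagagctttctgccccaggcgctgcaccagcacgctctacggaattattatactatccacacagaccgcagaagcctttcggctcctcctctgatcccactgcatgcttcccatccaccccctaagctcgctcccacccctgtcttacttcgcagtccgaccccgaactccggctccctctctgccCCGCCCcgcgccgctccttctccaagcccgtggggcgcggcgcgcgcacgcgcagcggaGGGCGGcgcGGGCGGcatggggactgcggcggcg
Chrna7, chr7:63212477-63212776, minus strand: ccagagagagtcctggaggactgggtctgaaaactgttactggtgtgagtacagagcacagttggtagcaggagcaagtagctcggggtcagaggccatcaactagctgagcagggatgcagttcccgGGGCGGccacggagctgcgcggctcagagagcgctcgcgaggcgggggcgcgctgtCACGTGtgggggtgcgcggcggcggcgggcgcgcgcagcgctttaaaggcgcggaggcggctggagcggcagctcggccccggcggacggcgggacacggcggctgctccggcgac
Trpm1 first start, chr7:64153585-64153884, plus strand: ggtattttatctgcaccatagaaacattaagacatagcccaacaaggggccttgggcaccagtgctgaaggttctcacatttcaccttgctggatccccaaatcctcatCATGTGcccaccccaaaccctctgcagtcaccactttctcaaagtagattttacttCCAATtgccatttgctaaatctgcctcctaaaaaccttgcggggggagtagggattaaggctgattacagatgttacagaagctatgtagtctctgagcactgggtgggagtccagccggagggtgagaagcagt
Trpm1 second start, chr7:64185209-64185508, plus strand: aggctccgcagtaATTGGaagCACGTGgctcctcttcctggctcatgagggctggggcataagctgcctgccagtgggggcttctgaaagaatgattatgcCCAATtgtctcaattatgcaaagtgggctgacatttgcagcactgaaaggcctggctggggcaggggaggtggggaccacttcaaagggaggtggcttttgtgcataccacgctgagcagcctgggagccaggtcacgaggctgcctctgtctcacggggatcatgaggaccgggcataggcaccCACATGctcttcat

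The Chrna7 window held 35 CpG dinucleotides and the Nipa1 window 30, against 13 in Gabra5 and 2 and 6 in the windows of Trpm1. The windows not printed held 13 CpG dinucleotides in Gabrg3, 47 in Fam189a1 and 51 in Otud7a. The median over all 32851 RefSeq promoter windows was 7, with 31 at the 90th percentile. CACGTG was found in Chrna7 and at the second start of Trpm1, and 7.15% of all windows hold it. CATGTG was found in Gabra5 and at both starts of Trpm1, and 14.2% of all windows hold it. GGGCGG occurred 3 times each in Nipa1 and Otud7a and once each in Chrna7, Gabrg3 and Fam189a1, and was in 35.7% of all windows. CCAAT was in Gabra5 and at both starts of Trpm1, against 37.4% of all windows, and TATAAA, held by 13.6%, was in none of the 8. A match of letters is a description of the window, not a binding site.

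**Figure D1:**
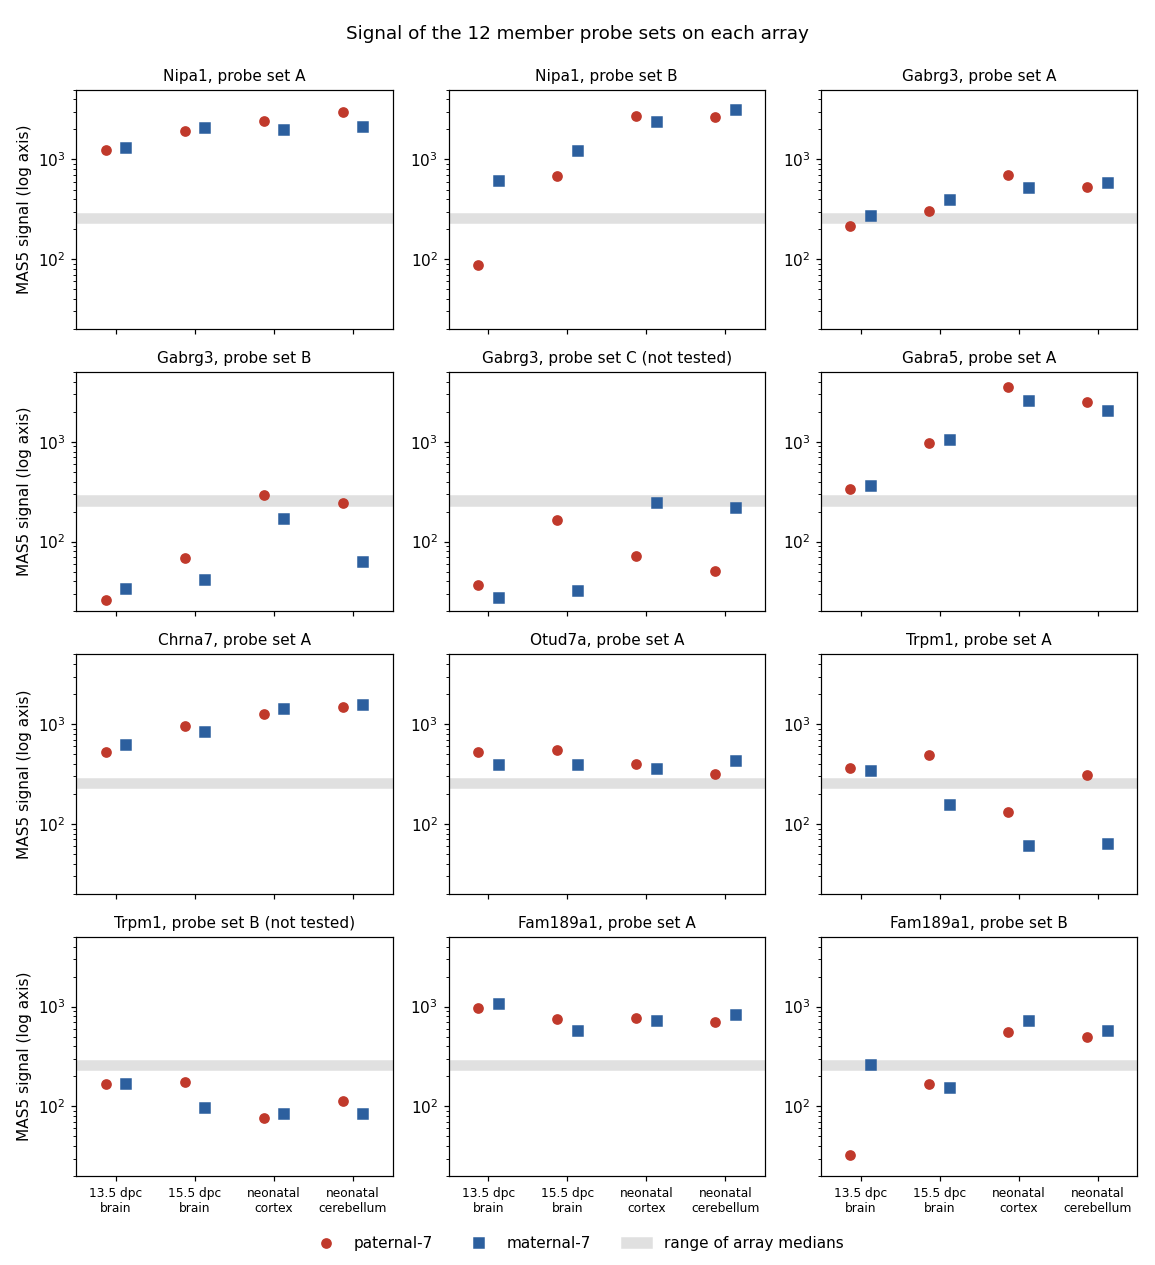
MAS5 signal (log axis) of the 12 member probe sets in each context, with paternal-7 (circles) to the left of maternal-7 (squares), 1 array each, and the range of array medians in grey. Gabra5 stood at 339 and 362 units at 13.5 dpc and between 2024 and 3547 on the 4 neonatal arrays, while Otud7a stayed between 317 and 551 on all 8.

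No difference by the parental origin of the duplication was called for the 7 genes. None of the 10 tested probe sets was called between paternal-7 and maternal-7 by limma, and 1 of the 10, for Trpm1, had an unadjusted p under 0.05. Over the whole array 1 probe set was called (0.00756% of those tested), which belongs to Snhg14, and 1147 had an unadjusted p under 0.05. The member differences ran from -0.75 to 0.93 on the log2 scale with a median of 0.09, against a median of 0.01 over all tested probe sets, and 6 of the 10 were above 0. Of these 6, Gabrg3 B passed the filter on dim values through paternal-7 arrays alone, so its sign carries no weight. The adjusted p-values of the 10 lay between 0.535 and 0.961.

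The size of a shared difference over the 4 contexts that these arrays leave possible varies between the genes. Each interval is for 1 fitted difference per probe set, without biological replicates, and does not bound the difference within a single context. For Chrna7 the difference was -0.06 ± 0.14, with a 95% interval of -0.39 to 0.26. Gabra5 gave 0.15 ± 0.15 (-0.22 to 0.52), Nipa1 A 0.16 ± 0.15 (-0.20 to 0.53) and Otud7a 0.14 ± 0.17 (-0.27 to 0.56). Gabrg3 A gave -0.09 ± 0.17 (-0.48 to 0.30) and Fam189a1 A 0.03 ± 0.15 (-0.32 to 0.38). In each of these 6 probe sets the interval lies inside 1 log2 unit, that is a 2-fold difference, in both directions. For the dimmer or more variable probe sets it does not. Nipa1 B was at -0.75 ± 0.37 (-1.62 to 0.13), Fam189a1 B at -0.56 ± 0.31 (-1.30 to 0.17), Gabrg3 B at 0.55 ± 0.24 (-0.01 to 1.11) and Trpm1 A at 0.93 ± 0.26 (0.31 to 1.55). The brightest Snhg14 probe set was below the array median on all 4 maternal-7 arrays, so only a bound is given. It was at least 5.54-fold higher in paternal-7, with the maternal-7 arrays set at their medians (adjusted p = 0.0595).

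**Figure D2:**
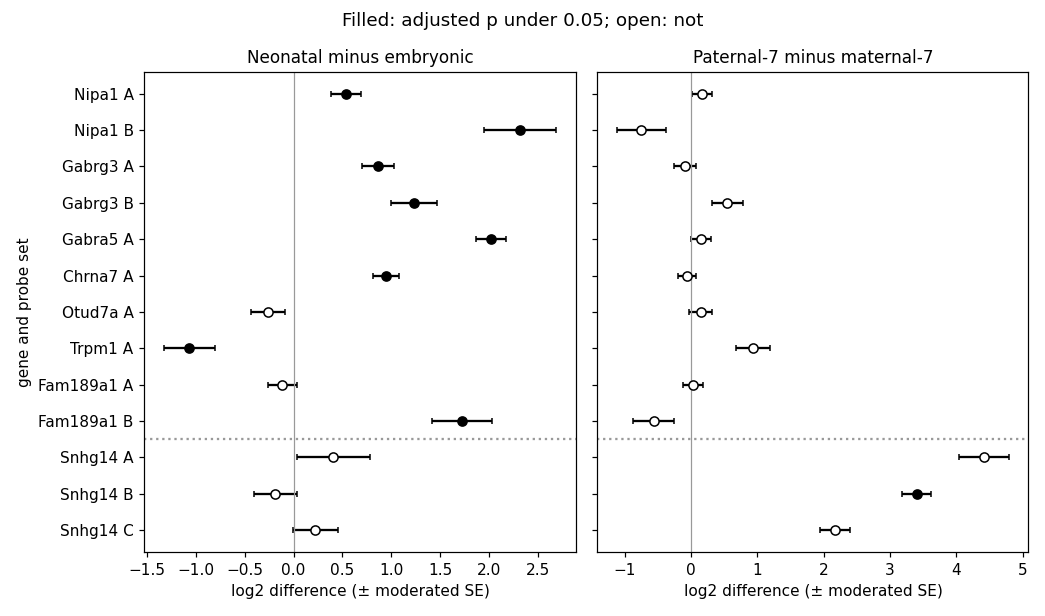
Log2 differences with their moderated standard errors for the 10 tested member probe sets, in chromosome order, and for the 3 of Snhg14 under the dotted line; filled points have an adjusted p under 0.05. On the left, neonatal minus embryonic, 7 member probe sets are called above 0 and Trpm1 A below; on the right, paternal-7 minus maternal-7, no member is called and Trpm1 A is the highest of them at 0.93. The Snhg14 points there, and Gabrg3 B on the left, depend on the pseudocount. It also bears on Trpm1 A on the right, at 0.54 with 4 times the pseudocount and 1.30 with signals floored at 1 and none. Fam189a1 B and Nipa1 B each include 1 dim array of 13.5 dpc (32.8 and 87.7 units), where the pseudocount weighs more.

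Age and region gave the contrast in which the genes did differ. Gabra5, Gabrg3, Nipa1 and Chrna7, and 1 of 2 probe sets of Fam189a1, were higher in the neonatal samples than in embryonic brain, and Trpm1 was lower. In all, 7 of the 10 tested probe sets were called higher and 1 lower, where 14.3% of all tested probe sets were called higher and 16.4% lower. Gabrg3 B passed the filter on dim values through neonatal arrays alone, and without it 6 of 9 were called higher and 1 lower. The median was 0.90 over the 10 and 0.86 over these 9, against -0.16 over all tested probe sets. The 9 still hold 2 probe sets whose passing leaned on the samples where they were higher. Fam189a1 B was above the median on 4 neonatal arrays and 1 embryonic one, and Trpm1 A on 1 neonatal array and 3 embryonic ones. Centring each array on its median moved the median over all tested probe sets to 0.02 and gave 2398 probe sets higher and 1058 lower over the array, in place of 1887 and 2168, and left the member count at 7 higher with 0 lower. For 5 of the 10, every neonatal array was above every embryonic array, as for 11.8% of all tested probe sets. The neonatal samples are dissected cortex and cerebellum and the embryonic ones whole brain, so age and dissected region cannot be told apart. In such bulk tissue fewer cells of a type and less RNA per cell cannot be told apart either. Without both 13.5 dpc arrays, 3 member probe sets were called higher (Gabra5, Nipa1 B and Fam189a1 B) and 0 lower, and without both cortex arrays 4 higher and 0 lower.

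Gabra5 and Gabrg3 code for subunits of the GABA-A receptor, the chloride channel through which GABA inhibits mature neurons. The alpha subunit made from Gabra5 is known from extrasynaptic receptors that carry tonic inhibition, above all in the hippocampus. Gabra5 had 339 units in paternal-7 and 362 in maternal-7 at 13.5 dpc, and 969 and 1038 units at 15.5 dpc in the same order of duplications. In cortex it had 3547 units in paternal-7 and 2546 in maternal-7, and in cerebellum 2533 in paternal-7 and 2024 in maternal-7. The 4 contexts therefore fell into an order, cortex above cerebellum above 15.5 dpc above 13.5 dpc, in which no pair of neighbours overlapped.

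The neonatal mean of Gabra5 was 2662 ± 638 units and the embryonic mean 677 ± 378 (SD, n = 4 each). The difference was 2.02 ± 0.15 on the log2 scale (adjusted p = 0.000729), and it stayed called under all 20 alternatives, from 1.33 without the 13.5 dpc arrays upwards. Between the embryonic stages Gabra5 was the only member called, 1.38 ± 0.22 higher at 15.5 than at 13.5 dpc (adjusted p = 0.0247), where 3.52% of all tested probe sets were called higher at 15.5 dpc. That call was lost without the filter on dim probe sets (adjusted p = 0.0588) and when any of the arrays but the maternal-7 one of 13.5 dpc was left out (adjusted p from 0.0542 to 0.131). Cortex exceeded cerebellum by 0.40 ± 0.22 (95% interval -0.12 to 0.92, adjusted p = 0.772), which is not a call.

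Gabrg3, a gamma subunit gene, lies beside Gabra5 and was measured by 3 probe sets. Gabrg3 A had 213 and 274 units at 13.5 dpc, 302 and 396 at 15.5 dpc, 696 and 515 in cortex, and 527 and 582 in cerebellum, with paternal-7 before maternal-7 in each. All neonatal arrays were above all embryonic ones, with 580 ± 83 units against 296 ± 76 (SD, n = 4 each) and a difference of 0.86 ± 0.17 (adjusted p = 0.0103), a call lost without both cerebellum arrays (0.0513) or both 13.5 dpc arrays (0.104). Cortex and cerebellum overlapped, and the embryonic stages did not.

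The dimmer Gabrg3 B had a neonatal mean of 193 ± 101 units against 42.2 ± 18.8 in embryonic brain (SD, n = 4 each). It passed the filter through neonatal arrays alone, and its embryonic mean is under the pseudocount, so its fitted difference (1.23 ± 0.24, adjusted p = 0.0105) depends on the pseudocount and is not read as a fold. It was above its array's median only on the cortex and cerebellum arrays of paternal-7, at 294 and 246 units, and had 169 and 62.3 units on those of maternal-7. Without the paternal-7 cortex array the adjusted p was 0.0528. Gabrg3 C, untested, had the opposite order of duplications in the neonatal samples, with 72.2 and 50.3 units in paternal-7 and 244 and 220 in maternal-7 for cortex and cerebellum. Over the 8 arrays A and B correlated with r = 0.79, A and C with 0.42 and B and C with 0.24, as a description of probe sets that share the arrays. The dim probe sets of Gabrg3 thus gave opposite neonatal orders of the duplications, and the brightest gave none that held in both regions.

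**Figure D3:**
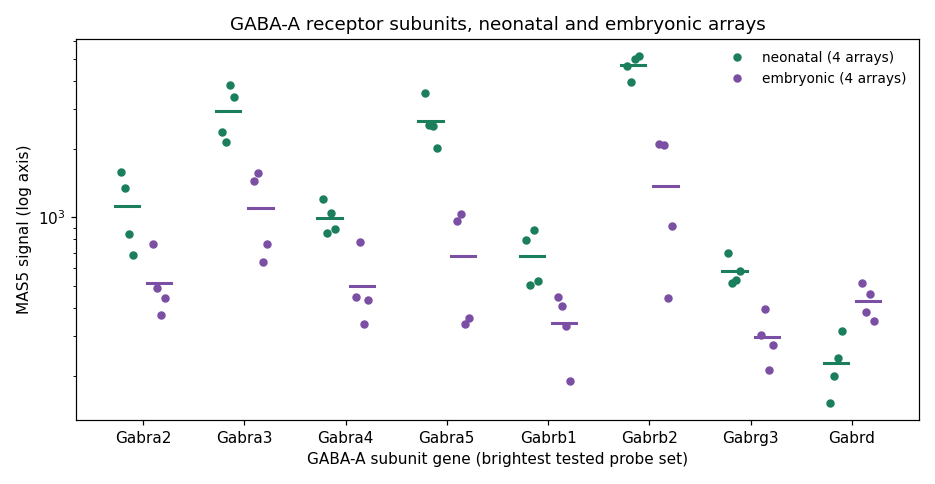
MAS5 signal (log axis) of the 8 GABA-A subunit genes tested, brightest tested probe set each, with the 4 neonatal arrays to the left of the 4 embryonic ones and bars for the means. For Gabra5 the means were 2662 and 677 units, and Gabrd was the only one of the 8 called lower, at 227 against 426 units.

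Of 19 GABA-A subunit genes listed, 8 had a tested probe set. In neonatal against embryonic samples 7 were called higher and Gabrd, the delta subunit gene, was called lower at -0.78 ± 0.18 (adjusted p = 0.0187). Of all tested probe sets 14.3% were called higher and 16.4% lower. Apart from Gabra5 and Gabrg3, 5 of the other 6 were called higher, at 1.95 ± 0.21 for Gabrb2, 1.43 ± 0.14 for Gabra3, 1.0 ± 0.17 for Gabra2, 0.96 ± 0.22 for Gabra4 and 0.88 ± 0.15 for Gabrb1. The median of the 8 was 0.98. Dimmer tested probe sets of Gabra2 (0.30, adjusted p = 0.299) and Gabra4 (0.30, adjusted p = 0.115) were not called. The other dimmer tested ones of Gabra2, Gabrb1 and Gabrb2 were called higher. That of Gabrb1 ranks as dimmer by its mean log2 value only, with neonatal and embryonic means of 1227 and 197 units (2.79 ± 0.20). Gabra3 and Gabrb2 were also called higher at 15.5 than at 13.5 dpc, like Gabra5. So was this probe set of Gabrb1 (2.43 ± 0.29). Its lowest embryonic array had 5.38 units, under the pseudocount, so neither of its differences is read as a fold. Gad2, which makes GABA, rose by 1.27 ± 0.17 and Slc6a11, a GABA transporter of astrocytes, by 2.78 ± 0.35, while Gphn and Nlgn2, of the inhibitory synapse, were not called (-0.03 and -0.32). No gene of either list was called between the duplications. The list count was 3 higher and 0 lower without both 13.5 dpc arrays (Gabra3, Gabra5 and Gabrb2), where 721 of the 13221 tested probe sets were called higher. Gabra4 lost its call without either neonatal paternal-7 array or the 13.5 dpc one (adjusted p from 0.0628 to 0.0837), and Gabrd without any of the 4 paternal-7 arrays (0.0603 to 0.0902). Gad2 is also the 1 tested marker of inhibitory neurons, and its part in the result was not tested.

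Chrna7 codes for the alpha-7 nicotinic acetylcholine receptor, a calcium-permeable channel made of 5 like subunits. It had 521 and 613 units at 13.5 dpc, 969 and 842 at 15.5 dpc, 1266 and 1432 in cortex, and 1491 and 1555 in cerebellum, in paternal-7 and then maternal-7. The contexts were ordered cerebellum, cortex, 15.5 dpc and 13.5 dpc, with no overlap between neighbours. The neonatal mean was 1436 ± 124 units against an embryonic mean of 736 ± 206 (SD, n = 4 each), a difference of 0.94 ± 0.14 (adjusted p = 0.00398). Without both 13.5 dpc arrays it was 0.63 with adjusted p = 0.0748. Of 16 nicotinic subunit genes listed, 5 were tested, and Chrna7 was the only one of them called. Of all tested probe sets 14.3% were called higher in neonatal samples and 16.4% lower. Chrna4 and Chrnb2, which together form the main high-affinity brain receptor, were at 0.53 (adjusted p = 0.0901) and 0.40 (adjusted p = 0.158). Lypd6, which codes for a modulator of nicotinic receptors, was called higher by 0.80 ± 0.14 on its brightest probe set. Its other tested probe sets were not called (0.18, adjusted p = 0.314, and 0.40, adjusted p = 0.216). Ric3, a chaperone of the alpha-7 receptor, was not called (-0.06).

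Nipa1 codes for a magnesium transporter of endosomes and the cell surface that also restrains BMP signalling, and mutations of the human gene cause a hereditary spastic paraplegia. Nipa1 A had 1253 and 1292 units at 13.5 dpc, 1921 and 2051 at 15.5 dpc, 2416 and 1960.4 in cortex, and 2982 and 2093 in cerebellum, again with paternal-7 first. Nipa1 B had 87.7 and 608 units at 13.5 dpc, 686 and 1218 at 15.5 dpc, 2701 and 2353 in cortex, and 2657 and 3108 in cerebellum. Both probe sets were lowest at 13.5 dpc and had their highest mean in cerebellum, whose arrays overlapped with those of cortex. They correlated with r = 0.83 over the 8 arrays.

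The sizes differed. Nipa1 B was 2.32 ± 0.37 higher in neonatal samples (adjusted p = 0.00541), with 2705 ± 310 units against 650 ± 462 in embryonic brain (SD, n = 4 each). It stayed called under all 20 alternatives. Nipa1 A was 0.54 ± 0.15 higher (adjusted p = 0.0395), with 2363 ± 455 units against 1629 ± 415. The call on Nipa1 A was lost with quantile normalization (0.0747), signals floored at 1 and no pseudocount (0.0523), no filter (0.0709), without both cortex arrays (0.101), both cerebellum arrays (0.145) or both 13.5 dpc arrays, where the difference was 0.23 (0.445), or when any of the arrays but the 15.5 dpc maternal-7 one was left out (adjusted p from 0.0502 to 0.150). In the maternal-7 samples of both embryonic stages Nipa1 B was brighter than in paternal-7, while the pair differences of Nipa1 A were -0.04 and -0.09 there. Of 16 magnesium transporter genes listed, 8 were tested, and besides Nipa1 its relative Nipal3 was called higher (0.85 ± 0.12) and Magt1 lower (-1.01 ± 0.13). Of all tested probe sets 14.3% were called higher and 16.4% lower, for this list and the next. A dimmer probe set of Nipal3 was not called (0.39, adjusted p = 0.0937). Among 3 tested BMP receptor genes Acvrl1 was called lower (-0.64 ± 0.13, lost without either cortex array, at 0.0524 and 0.0566), and Bmpr2 (0.29) and Bmpr1b (0.05) were not called.

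Trpm1 codes for a cation channel best known from retinal ON bipolar cells and from melanocytes. Trpm1 A had 365 and 341 units at 13.5 dpc, 486 and 155 at 15.5 dpc, 133 and 60.6 in cortex, and 312 and 62.6 in cerebellum, in paternal-7 and then maternal-7. It was above its array's median on 3 of 4 paternal-7 arrays and on 1 of 4 maternal-7 arrays. Paternal-7 exceeded maternal-7 in 4 of 4 contexts, as 9.67% of all tested probe sets did, by 0.08 at 13.5 dpc, 1.35 at 15.5 dpc, 0.68 in cortex and 1.61 in cerebellum. The limma difference was 0.93 ± 0.26 (unadjusted p = 0.00938, adjusted p = 0.535), which is not a call. It was 0.54 with a pseudocount 4 times as large and 1.30 with signals floored at 1 and none.

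The untested Trpm1 B was dimmer than the median on all 8 arrays, with 166 and 167 units at 13.5 dpc, 175 and 96.1 at 15.5 dpc, 77.1 and 83.9 in cortex, and 112 and 83.9 in cerebellum. It correlated with A at r = 0.90 over the 8 arrays. Its paternal-7 array was higher at 15.5 dpc and in cerebellum and not at 13.5 dpc or in cortex. In neonatal samples Trpm1 A was lower, with a log2 difference of -1.07 ± 0.26 (adjusted p = 0.0234), with 142 ± 118 units against 337 ± 137 in embryonic brain (SD, n = 4 each), and the groups overlapped. The call was lost with quantile normalization (0.0506) and median centring (0.0505), without either cortex array, the maternal-7 cerebellum array or the paternal-7 array of 15.5 dpc (0.0601 to 0.0984), and without both 13.5 dpc arrays (0.0637).

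Of 6 TRPM channel genes tested, Trpm3 was called higher in neonatal samples on probe sets A (1.03 ± 0.20) and B (1.65 ± 0.20, adjusted p = 0.00228) and lower on probe set C (-0.75 ± 0.14, adjusted p = 0.00888), so that its probe sets disagree. The call on A was lost without the paternal-7 array of cortex (0.0555) or of cerebellum (0.0561). Trpm6 was called lower (-0.44 ± 0.13), and lost the call when any 1 array was left out (0.0697 to 0.155) and with quantile normalization (0.0595), median centring (0.20), the floor of 1 (0.0503) or no filter (0.0738). Over the array 14.3% of tested probe sets were called higher in neonatal samples and 16.4% lower. Melanocyte markers were looked at beside Trpm1. Of 10 listed, 3 were on the array and 2 tested, Mc1r and Mlana, neither of them called in any contrast. Their summed signal with the dim Gpnmb ran from 783 to 1341 units on the paternal-7 arrays against 562 to 951 on the maternal-7 arrays, and from 781 to 951 on the neonatal arrays against 562 to 1341 on the embryonic ones. None of the 8 retinal markers listed has a probe set here, and the part of either cell type in the Trpm1 signal was not tested.

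Otud7a codes for a deubiquitinase of the OTU family that is expressed in neurons and lies, with Chrna7 and Trpm1, in a segment deleted in a human neurodevelopmental syndrome. Otud7a had 528 and 386 units at 13.5 dpc, 551 and 393 at 15.5 dpc, 395 and 357 in cortex, and 317 and 430 in cerebellum, with paternal-7 first. All neighbouring contexts overlapped. The neonatal mean was 375 ± 49 units against 464 ± 87 in embryonic brain, a difference of -0.26 ± 0.17 (adjusted p = 0.277). In 3 of 4 contexts paternal-7 was the higher array, by 0.40, 0.43 and 0.13, and in cerebellum the difference was -0.38. Of 10 OTU deubiquitinase genes tested, Zranb1 (0.62 ± 0.16) and Otud1 (0.57 ± 0.17) were called higher in neonatal samples on their brightest tested probe set, where 14.3% of all tested probe sets were. Both calls were lost without the filter (adjusted p = 0.0525 for Zranb1 and 0.0761 for Otud1), and that on Zranb1 also with quantile normalization (0.0643). A dimmer probe set of Vcpip1 was called higher too (0.71 ± 0.14, adjusted p = 0.0112), while its brightest was not (-0.02). Leaving out any 1 array but the paternal-7 one of cortex also ended the call on Otud1 (0.0730 to 0.152), and that on Zranb1 was ended in the same way except by the paternal-7 arrays of cortex and 15.5 dpc (0.0629 to 0.105).

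Fam189a1, which codes for a little-studied membrane protein, gave probe sets that did not move together (r = -0.26 over the 8 arrays). Fam189a1 A had 973 and 1056 units at 13.5 dpc, 753 and 575 at 15.5 dpc, 761 and 713 in cortex, and 704 and 826 in cerebellum. Fam189a1 B had 32.8 and 262 units at 13.5 dpc, 167 and 154 at 15.5 dpc, 561 and 720 in cortex, and 491 and 572 in cerebellum, both in the order paternal-7, maternal-7. Probe set A was brightest at 13.5 dpc and did not differ by call between neonatal and embryonic samples (-0.12 ± 0.15, adjusted p = 0.559), a sign that median centring turned (0.057). Probe set B was higher on every neonatal than on every embryonic array, by 1.72 ± 0.31 (adjusted p = 0.00819), and lost that call without both cortex arrays (adjusted p = 0.0557). Which transcripts the probe sets match was not analysed here.

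**Figure D4:**
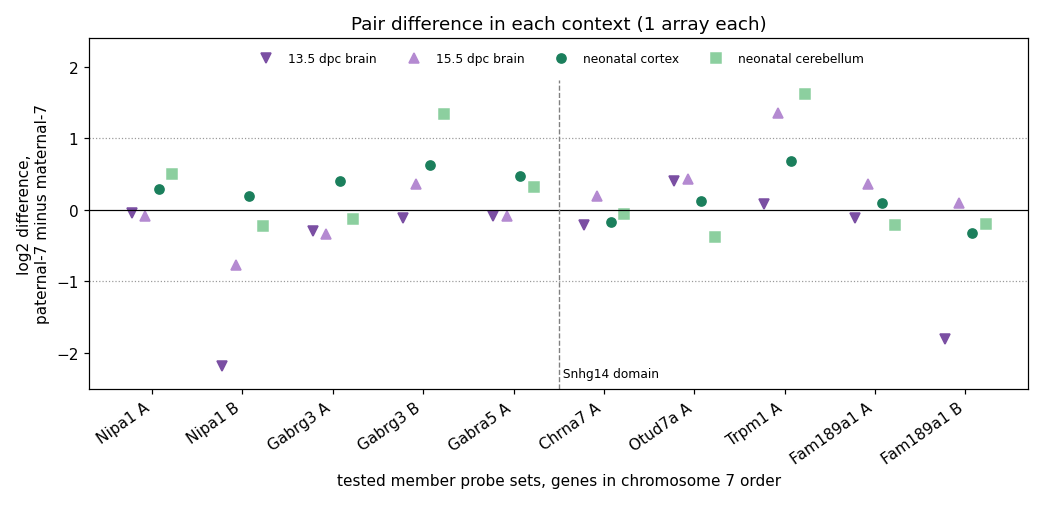
Log2 difference of paternal-7 minus maternal-7 in each context for the 10 tested member probe sets in chromosome order, each point from 1 array per duplication; dotted lines mark a 2-fold difference and the dashed line the Snhg14 domain. The points past 2-fold are Nipa1 B (-2.19) and Fam189a1 B (-1.81) at 13.5 dpc, Trpm1 A at 15.5 dpc (1.35) and Gabrg3 B (1.33) and Trpm1 A (1.61) in cerebellum.

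Within single contexts few member pairs differed by 2-fold or more, and those that did were dim on 1 side. In cortex no member pair did, where 2.7% of all tested probe sets did. In cerebellum 2 did (2.87% of all tested), Gabrg3 B and Trpm1 A, both higher in paternal-7, though Gabrg3 B passed the filter through paternal-7 arrays alone. At 15.5 dpc Trpm1 A did (7.92%), and at 13.5 dpc Nipa1 B and Fam189a1 B did, both lower in paternal-7 (6.66%). In each of the 5 cases the lower array of the pair was below its median, at 62.3, 62.6, 155, 87.7 and 32.8 units. With 1 array on each side these differences have no replicate check, and with a pseudocount 4 times as large 1 of the 5, Nipa1 B at 13.5 dpc, remained past 2-fold. Trpm1 A in cortex, at 133 and 60.6 units, was at 0.68 on this scale. The untested Gabrg3 C, outside these counts, was also past 2-fold. Its paternal-7 array was lower in cortex (-1.21) and cerebellum (-1.35) and higher at 15.5 dpc (1.30).

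No call separated cortex from cerebellum for these genes. None of the 10 was called by limma and none had an unadjusted p under 0.05, where 0.325% of all tested probe sets (43) were called and 1011 had an unadjusted p under 0.05. The differences of cortex minus cerebellum ran from -0.49 for Trpm1 A to 0.56 for Gabrg3 B. Their 95% intervals were as narrow as -0.63 to 0.29 for Chrna7 and as wide as -1.42 to 1.05 for Nipa1 B. Whether the duplication difference itself changed between neonatal and embryonic contexts was tested by an interaction term, and 0 probe sets of the array were called (0% of those tested, 1209 with an unadjusted p under 0.05, 1 of them a member). The lowest adjusted p of a member was 0.514, for Nipa1 B at 1.47 ± 0.50.

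The genes whose pattern over the 8 arrays was most like that of a member differed from member to member. For Gabra5 they were Stum (r = 0.997), Grm5 (0.995), a metabotropic glutamate receptor gene, and Fut9 (0.995), and 316 tested probe sets reached r = 0.95. For Chrna7 they were Hepacam (0.994), an adhesion protein of glia, Tbc1d24 (0.990) and Eif1ax (0.990), with 260 probe sets at r = 0.95 or above. For Gabrg3 A they were Fam120c (0.996), Paqr9 (0.992) and Nek2 (0.991), with 161. For Nipa1 A they were Carmil2 (0.988), Magi1 (0.978) and Urgcp (0.975), with 38. For Trpm1 A they were Samd4 (0.969), Mybpc1 (0.968) and Marchf10 (0.959), with 5. Otud7a and Fam189a1 A spanned less than 1 log2 unit over the arrays and were not matched. All these correlations are a description over the same 8 arrays, which share tissue and age within a context.

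The other genes of the neighbourhood add little. Of 14 further genes around the domain that are held to be biallelic, Herc2 and Tubgcp5 had a probe set, dimmer than the median on all 8 arrays, and neither was tested. Of the 10 imprinted genes listed, 4 were tested, and Ipw was called higher (1.07 ± 0.32, adjusted p = 0.0458) and Atp10a lower (-0.82 ± 0.16, adjusted p = 0.0122) in neonatal against embryonic samples. Over the array 14.3% of tested probe sets were called higher in this contrast and 16.4% lower. Ipw lost its call when any of the arrays but the maternal-7 one of 15.5 dpc or the paternal-7 one of 13.5 dpc was left out (0.0609 to 0.145) and without the filter (0.0849), and Atp10a without the paternal-7 array of cortex (0.0660) or of cerebellum (0.0593). Ube3a, at -0.41 ± 0.13, was not called (adjusted p = 0.0523). None of these 3 was called between paternal-7 and maternal-7, at 0.32 for Ipw, -0.13 for Atp10a and 0.13 for Ube3a. Ipw was higher in paternal-7 in 2 of 4 contexts and had 510 to 707 units on the neonatal arrays. It thus did not separate the duplications as Snhg14 did, and the reason was not tested.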

How the data were processed

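RNA of 8 mouse brain samples was hybridised to 1 array each. The authors deposited linear signal intensities, made with MAS5 per the submitters' processing notes. Over each array's 2nd to 98th percentile the mean was 499.9 on every array, so the authors' scaling was kept. After 64 control probe sets were left out, 58.7% of 22511 were tested. The platform annotation gave 14661 probe sets 1 symbol, 245 several and 7605 none. limma 3.58.1 in R 4.3.3 fitted log2(signal + 58.5), the median of the arrays' 20th percentiles, on context and duplication over all 8 arrays, and 3 residual degrees of freedom remained. The duplication contrast pairs the arrays of a context, and the labels give no replicate numbers beyond that. Calls are adjusted p under 0.05. A run on simulated data checked only that the code returned the differences put in, and nothing on power is read from it. Tables and figures were made with Python 3.11.15.

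All member probe sets are named. Genes of fixed lists (receptor families, transporters, cell markers) are counted on their brightest tested probe set, and those called are named, at most 6 per list and contrast. Look-alikes are the 3 genes of highest Pearson correlation. The members and lists were chosen with earlier results of these data known. Alternatives were quantile normalization, median centring, other pseudocounts and filters, trended robust variance and leaving out arrays or contexts.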

Additional observations from a re-analysis of the deposited data

Results flagged for a closer look

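For Gabra5 and for Nipa1 A both neonatal pairs were higher in paternal-7 than in maternal-7 and both embryonic pairs were lower. The pair differences of Gabra5 were -0.08 at 13.5 dpc, -0.09 at 15.5 dpc, 0.47 in cortex and 0.32 in cerebellum. The duplication difference was thus 0.48 ± 0.24 larger in neonatal than in embryonic contexts (interaction term of limma, adjusted p = 0.587). Those of Nipa1 A were -0.04, -0.09, 0.29 and 0.50 in the same contexts, and the interaction was 0.46 ± 0.24 (adjusted p = 0.606). Neither interaction passed the threshold. Nipa1 B did not show this split, at -2.19, -0.78, 0.19 and -0.22 in the same contexts. The pattern was picked from the values, and the share of all tested probe sets with such a split is not given.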

How the results depend on the processing

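Members called higher in neonatal against embryonic samples numbered 5 to 7 under every alternative chosen from the labels, and 4, 5, 7 and 3 without both cortex, cerebellum, 15.5 dpc or 13.5 dpc arrays, 4 alternatives chosen after seeing the data. The member called lower was not called (0) with quantile normalization, median centring, or without both cortex or 13.5 dpc arrays, and leaving out 1 array gave 0 to 1. All calls numbered 1816, 1922 and 1104 without both cortex, cerebellum or 13.5 dpc arrays, and 1827 to 3523 with 1 array left out. Median centring moved the median of all probe sets from -0.16 to 0.02 and quantile normalization to -0.06, and the share of higher among all calls was 46.5% as reported, 69.4% with median centring. Fam189a1 A turned to 0.057 with centring and 0.17 without the 13.5 dpc arrays. Between duplications, calls over the array numbered 0 (floor of 1, no filter, no neonatal pairs), 2 (4 times the pseudocount, strict filter), 3 (trended robust variance) and 4 (no embryonic pairs), and 0 to 2 with 1 pair left out, and no member was among them. Signs turned for Fam189a1 A (-0.0073 with centring, -0.063 without embryonic pairs, -0.079 to 0.11 with 1 pair left out), Gabrg3 A (0.13) and Otud7a (-0.13) without embryonic pairs, and Gabra5 (-0.088) and Nipa1 A (-0.067) without neonatal pairs. The interaction of Chrna7 turned to 0.019 with centring. Cortex minus cerebellum gave 22 calls (floor), 28 (0.25 of the pseudocount), 93 (4 times), 11 (no filter), 84 (trended) and 0 to 21 with 1 array left out. Then Fam189a1 A ran from -0.21 to 0.12, Fam189a1 B from -0.0033 to 0.48, Gabrg3 A from -0.22 to 0.43, Nipa1 A from -0.42 to 0.029, Nipa1 B from -0.81 to 0.44 and Otud7a from -0.33 to 0.37. The contrast of 15.5 with 13.5 dpc gave 459 calls (floor), 1324 (4 times), 207 (no filter), 1409 (trended) and 0 to 522 with 1 array left out, with 0 members (no filter) and 0 to 2. Then Fam189a1 B ran from -0.48 to 1.19, Gabrg3 B from -0.093 to 0.80, Otud7a from -0.15 to 0.23 and Trpm1 A from -0.84 to 0.29. Pairs past 2-fold numbered 572 and 71 in cortex and 604 and 73 in cerebellum with 0.25 and 4 times the pseudocount, and 277 and 239 at 15.5 and 13.5 dpc with 4 times, when 0, 0 and 1 members were past it in cerebellum, 15.5 and 13.5 dpc. Causes were not tested. The duplication contrast is itself paired by context, and the labels give no replicate numbers. With 8 arrays the number of arrays limits the precision, and signals near or under the array median limit Gabrg3 B and C, Trpm1 and the 13.5 dpc values of Nipa1 B and Fam189a1 B.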
